A study of Capra hircus with 6 samples.

Results

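Carboxylesterases were followed in RNA of goat skin as a gene family of 10 members among the 26951 named genes of the deposited table. Members were the genes whose description holds the word carboxylesterase or whose symbol begins with CES and a digit. At most 10 were to be kept by total reads, and exactly 10 were found, so none fell outside. They were CES2, CES3, CES4A, CES5A, NOTUM and the liver carboxylesterase genes LOC102188340, LOC102188887, LOC102188073, LOC106504012 and LOC108635379. The family was chosen by measured values of this same contrast, namely read counts of 2 members that were lower in black-coated skin, so the contrast of coat colours within the family is described here without p-values. The animals were crossbred between Boer and Macheng Black, a cross with a black head on a white body, and the skin samples included hair follicles. Black-coated skin gave 3 libraries, black replicates 1, 2 and 3, and white-coated skin gave 3, white replicates 4, 5 and 6. Values of a group are listed in that order. No treatment, transgene, age or sex is given in the labels, nor the body site of a sample or the number of animals, so colour cannot be told apart from site, and the spread between samples may be partly technical.

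Carboxylesterases are serine hydrolases, mostly held in the endoplasmic reticulum or secreted, that cut the ester bonds of drugs, pesticides, triacylglycerols, cholesteryl esters and retinyl esters. The mammalian genes arose by duplication and lie in tandem, with copy numbers that differ between species. Skin uses them to cut esters that reach it from outside, and they are studied there for the release of drugs from ester prodrugs. NOTUM is a more distant relative that removes the palmitoleate of Wnt proteins and so inactivates them. Liver carboxylesterase takes its name from the organ in which the human gene CES1 is most abundant. In human tissue CES1 is also found in macrophages and adipocytes.

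Reads of named genes numbered between 12648817 and 22085079 per library. Levels are given as counts per unit of library size (CPM) after scaling by the trimmed mean of M values (TMM), a unit that compares libraries but not genes of different length. Of all genes, 15778 had enough reads to be tested between the groups, and edgeR's quasi-likelihood test called 0 of them at an adjusted p of 0.05 (0% of the genes tested), with 536 at an unadjusted p under 0.05. DESeq2 called 78 of 15732 (0.496%), 35 lower (0.222%) and 43 higher (0.273%) in black-coated skin. Black replicate 1 stood apart from the other libraries: the inner root sheath protein TCHH stood at 350 CPM in it and between 3623 and 7273 CPM in the other 5. The Y-linked gene LOC108634721 had 1, 688 and 0 reads in the black libraries, against 934, 801 and 767 in the white libraries. Judged by this 1 gene, black-coated skin came from more than 1 animal, and no other Y-linked gene was examined. Black replicates 1 and 3 all but lacked reads of LOC108634721 while every white library had them, so colour cannot be fully told apart from sex either. The part of black replicate 1 and of sex in the levels of the members was not tested. Basal epidermal keratin KRT5 was present in every library, between 929 and 4596 CPM.

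CES4A, LOC102188073 and CES3 were the members whose libraries from black-coated skin all lay below those from white-coated skin. CES4A, a carboxylesterase predicted from its sequence, had 497, 75 and 182 reads in the black libraries, against 877, 1262 and 965 in the white libraries. Scaled to library size this was 35.3, 5.38 and 7.88 CPM in the black libraries, against 49.9, 74.1 and 68.4 CPM in the white libraries. The groups did not overlap, and black replicate 1 lay nearer to the lowest white library than to either of the other black ones on this scale. CES4A averaged 16.2 ± 16.6 CPM in black-coated and 64.1 ± 12.6 CPM in white-coated skin (SD, n = 3 each), a log2 fold change of -1.99 (SE 0.69), and -3.26 without black replicate 1.

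LOC102188073, described as a liver carboxylesterase, had 134, 93 and 155 reads in the black libraries, against 451, 365 and 579 in the white libraries. This was 9.51, 6.67 and 6.71 CPM in the black libraries, against 25.7, 21.4 and 41.0 CPM in the white libraries. The highest black library was 1.43 times the lowest, the narrowest spread of any tested member in black-coated skin. The means were 7.63 ± 1.63 and 29.4 ± 10.3 CPM in black- and white-coated skin (SD, n = 3 each), a log2 fold change of -1.94 (SE 0.31). CES3, whose human counterpart is an esterase of the endoplasmic reticulum, had 34, 11 and 48 reads in the black libraries, against 73, 102 and 98 in the white libraries. It stood at 2.41, 0.789 and 2.08 CPM in the black libraries, against 4.15, 5.99 and 6.94 CPM in the white libraries, so its groups did not overlap either (log2 fold change -1.68, SE 0.49).

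Among all genes tested, 4.99% had every black library below every white library and 3.81% the reverse. For the members the counts were 3 and 0 of the 8 with enough reads. Of these 8, 6 had the lower mean CPM in black-coated skin, as had 47% of all genes tested, and the median log2 fold change was -0.77 against 0.02 for all genes. Since they were chosen for this contrast nothing is read from these differences.

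**Figure D1:**
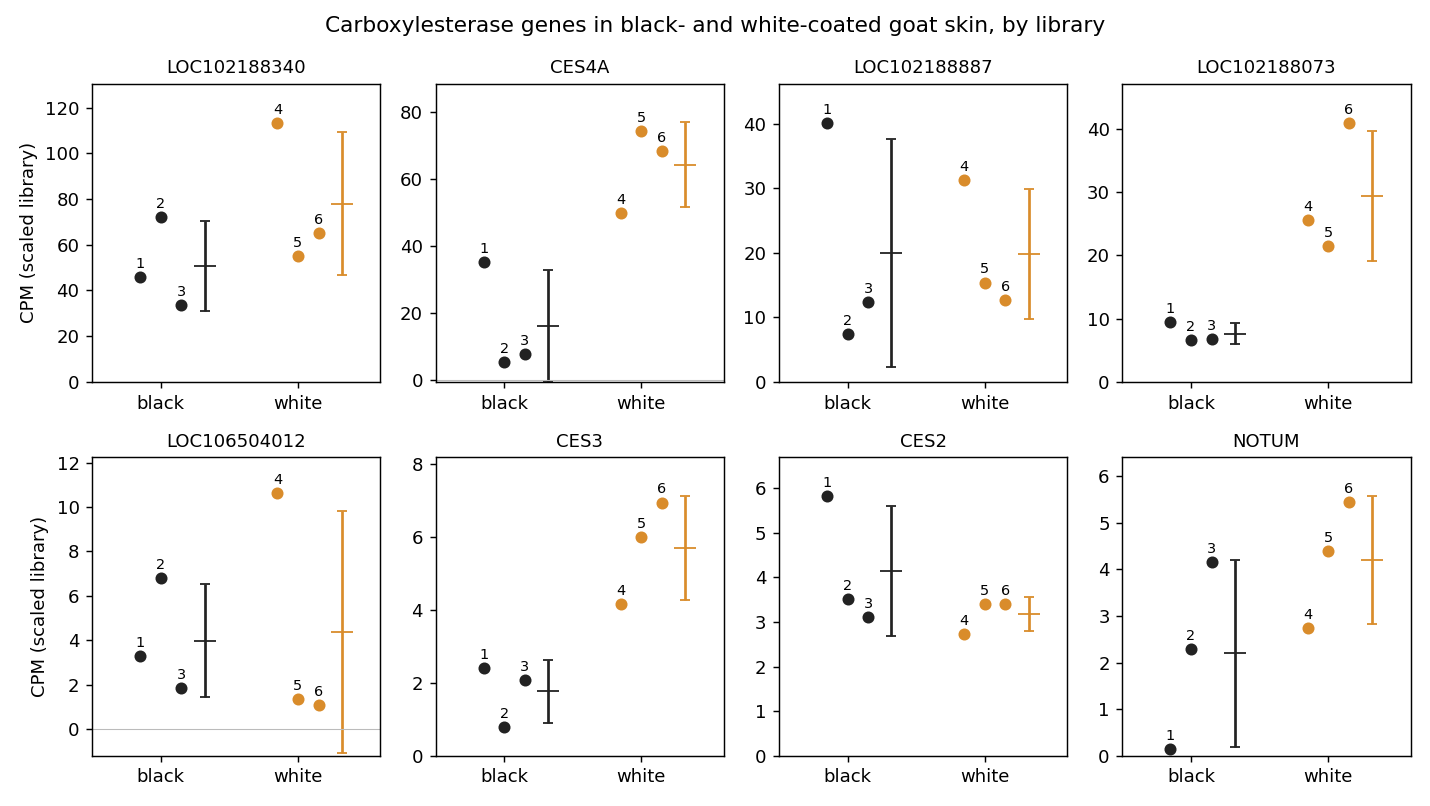
Levels of the 8 carboxylesterase genes with enough reads, in CPM of the scaled library, for each library (points, numbered by replicate), with the mean and SD of 3 libraries per group. Black and white points separate for CES4A, LOC102188073 and CES3 and mix for the other 5 genes.

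The other 5 members with enough reads had groups that overlapped. LOC102188340, a liver carboxylesterase whose predicted protein is annotated as of low quality, had the most reads of the family, 6290 in all. It stood at 45.9, 72.4 and 33.8 CPM in the black libraries, against 113, 55.2 and 65.3 CPM in the white libraries (log2 fold change -0.62, SE 0.37). White replicate 4 held the highest value, and without it the log2 fold change was -0.25. LOC102188887, another liver carboxylesterase, stood at 40.2, 7.46 and 12.3 CPM in the black libraries, against 31.3, 15.4 and 12.8 CPM in the white libraries. Its means were 20.0 ± 17.6 and 19.8 ± 10.04 CPM in black- and white-coated skin (SD, n = 3 each), a log2 fold change of 0.01 (SE 0.65). Without black replicate 1, its highest library, the log2 fold change was -0.99, with black values up to 12.3 CPM and white values from 12.8 CPM, a separation in that direction that 14.5% of all genes showed without this library.

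CES2, known in humans for the hydrolysis of cocaine and of the prodrug irinotecan, stood at 5.82, 3.51 and 3.12 CPM in the black libraries. In the white libraries it stood at 2.73, 3.41 and 3.40 CPM. It had the narrowest spread of the family in white-coated skin, the highest library being 1.25 times the lowest, and a log2 fold change of 0.38 (SE 0.37), or 0.06 without black replicate 1. LOC106504012, described as a liver carboxylesterase, had 46, 95 and 43 reads in the black libraries, against 187, 23 and 15 in the white libraries. Its log2 fold change was -0.14 (SE 0.95) over all libraries, 1.71 without white replicate 4, its highest library, and 0.21 without black replicate 3, so it had no settled direction.

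NOTUM had 2, 32 and 96 reads in the black libraries, against 48, 75 and 77 in the white libraries, or 0.142, 2.29 and 4.16 CPM in the black libraries, against 2.73, 4.41 and 5.46 CPM in the white libraries. Its lowest library was the one lowest in inner root sheath and hair shaft markers, and the log2 fold change was -0.91 (SE 0.89), and -0.36 without that library. The last 2 members could not be tested. CES5A, the family member secreted into cat urine as cauxin, had 1 read in all 6 libraries, in white replicate 4. In the black libraries its 0 reads allow up to 3 reads each, at most 0.215 CPM, counting error only. LOC108635379, described as like liver carboxylesterase, had 1 read in the black libraries together and 2 in the white libraries together.

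**Figure D2:**
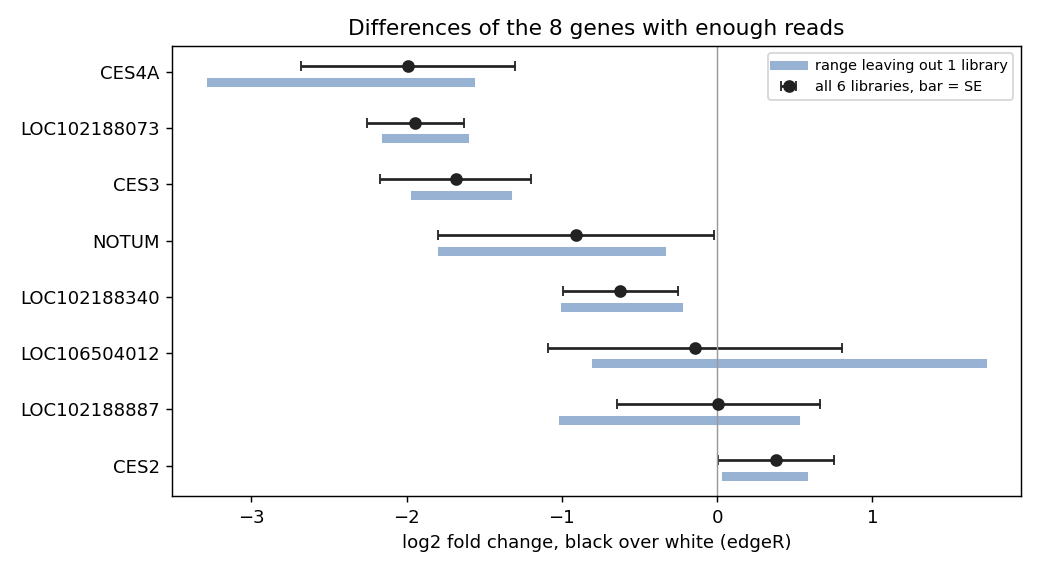
Log2 fold changes of black- over white-coated skin for the 8 genes (points, with bars of 1 SE) and the range of the same value when each library was left out in turn (blue bars). The range of LOC106504012 crosses 0 up to 1.71, and that of CES4A reaches -3.26.

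Neighbouring members did not all separate between the groups. By gene order in the ARS1.2 assembly, to which all transcripts of the family were matched by their identifiers, CES2, CES3 and CES4A are consecutive genes on chromosome 18. LOC102188073 and LOC102188887 are consecutive on the same chromosome, as are CES5A and LOC102188340, and LOC106504012 lies there between DOK4 and DYNLRB2. NOTUM lies on chromosome 19, and LOC108635379 is not placed. CES3 and CES4A had lower means in black-coated skin while CES2, next to CES3, did not, and the groups of CES2 overlapped. In FPKM, the deposited level per kilobase of transcript, CES3 over CES2 gave a ratio of 0.394, 0.118 and 0.707 in the black libraries, against 1.404, 1.73 and 1.74 in the white libraries. LOC102188073 over LOC102188887 had FPKM ratios of 0.239, 0.76 and 0.663 in the black libraries, against 1.21, 1.902 and 4.96 in the white libraries. Neither ratio overlapped between groups. The family was chosen in part on the difference of LOC102188073, so the separation of its ratio restates that choice. How often the ratios of other gene pairs separate was not examined, and nothing is read from either ratio.

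The genes flanking these runs showed no such separation. FAM96B, which precedes CES2, stood at 19.97 ± 0.195 CPM in black-coated and 19.7 ± 1.298 CPM in white-coated skin (SD, n = 3 each). CBFB, which follows CES4A and encodes a partner of the RUNX transcription factors, stood at 68.9 ± 11.8 and 64.5 ± 2.81 CPM in black- and white-coated skin. The noradrenaline transporter SLC6A2, which precedes LOC102188073, had a log2 fold change of 0.66 (SE 0.52). The metallothionein gene LOC102188618, which follows LOC102188887, had one of 0.34 (SE 0.91). NUP93, a nuclear pore protein gene that follows LOC102188340, had one of 0.21 (SE 0.22). The groups overlapped for all 5.

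Taken over the whole family, the members' CPM summed to 143, 105 and 71.9 in the black libraries, against 241, 181 and 204 in the white libraries. The sum includes CES4A and LOC102188073, on whose difference the family was chosen, so it restates that choice. The make-up of the sum differed between libraries. LOC102188340 held 32.2%, 68.7% and 47.0% of the family's reads in the black libraries, against 47.1%, 30.4% and 31.9% in the white libraries. CES4A held 24.7%, 5.11% and 10.96% in the black libraries, against 20.7%, 40.9% and 33.5% in the white libraries, and was the largest member by reads in white replicates 5 and 6. LOC102188340 was the largest by reads in the other 4 libraries. By FPKM, which allows for transcript length, LOC102188340 was the largest in every library.

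Per transcript length, LOC102188340 was the most abundant member, with a median of 28.4 FPKM over the 6 libraries. LOC106504012 followed at 11.9 FPKM, CES4A at 11.7, LOC102188073 at 5.87, LOC102188887 at 3.996 and LOC108635379 at 3.42 FPKM. CES2 had a median of 1.34, CES3 of 1.34 and NOTUM of 1.24 FPKM, and CES5A was listed at 0 in 5 of 6 libraries. Each of the 9 pairs of neighbours in this order was compared within libraries on log2(FPKM + 0.1) by an exact two-sided sign-flip permutation test, whose smallest possible p with 6 libraries is 0.0312. LOC102188340 exceeded LOC106504012 in 6 of 6 libraries, by 1.101 ± 0.441 log2 units (SD; exact p = 0.0312, Benjamini-Hochberg adjusted p = 0.141). NOTUM exceeded CES5A in 6 of 6 libraries by 3.23 ± 1.47 log2 units, with the same p-values. With CES5A at 0 FPKM in 5 of 6 libraries, the size of that difference rests on the added 0.1. The pairs were set by the medians of these same FPKM values, so the tests lend the order no separate support. The other 7 pairs had exact p between 0.0625 and 0.906 and adjusted p between 0.188 and 0.906. No pair passed after adjustment over the 9, which could happen only if most pairs reached the smallest possible p. Of the other 7 pairs, LOC108635379 exceeded CES2 in 5 of 6 libraries by 1.31 ± 1.25 log2 units, and in the remaining 6 the mean difference was smaller than its SD between libraries.

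**Figure D3:**
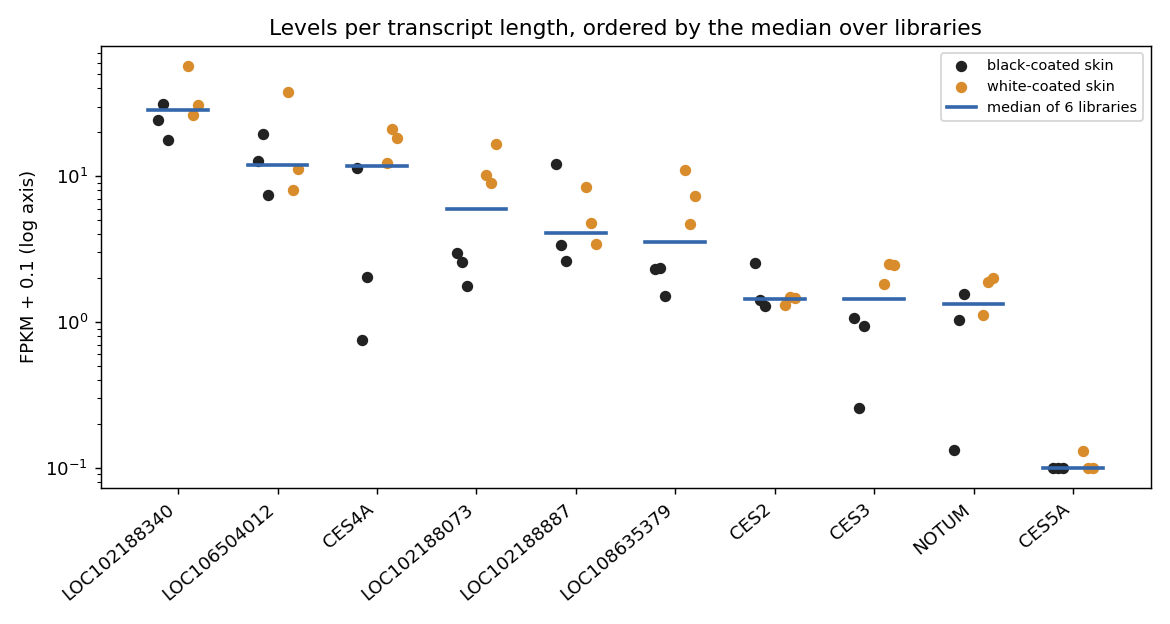
Deposited FPKM plus 0.1, on a log axis, of all 10 members in each library, with the median of 6 libraries as a blue line. Members run from LOC102188340 (median 28.4 FPKM) to CES5A (median 0), and the black points lie below the white ones for CES4A, LOC102188073, CES3 and LOC108635379.

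Reads and FPKM did not always run together. LOC108635379 had 1, 0 and 0 reads in the black libraries but 2.22, 2.26 and 1.41 FPKM, and 2, 0 and 0 reads in the white libraries but 10.97, 4.57 and 7.23 FPKM. Its groups overlapped by reads and did not overlap by FPKM. LOC106504012 stood at 12.7, 19.3 and 7.36 FPKM in the black libraries, against 37.7, 7.9997 and 11.1 FPKM in the white libraries. For a transcript of fixed length, the ratio of FPKM to CPM should be nearly the same in each library. It ran from 0.43 to 0.523 for LOC102188340 and from 0.375 to 0.445 for CES2, but from 2.83 to 10.4 for LOC106504012. Its highest value was 2.63 times the lowest for CES4A, 2.13 times for LOC102188887, 2.08 times for CES3, 1.80 times for NOTUM and 1.65 times for LOC102188073. For CES4A, LOC102188887 and LOC102188073 the FPKM was that of 1 variant and the reads were those of another. The split of FPKM between variants therefore enters their ratios, which do not show by themselves that reads and FPKM parted. Black replicate 2 held the lowest ratio for CES4A and CES3. In that library isoform X1, the variant used for FPKM, held 41.9% of the summed FPKM of CES4A, its smallest share in any library. LOC108635379, LOC106504012 and the other liver carboxylesterase genes share a description, and how reads that match several copies were treated is not given in the sources used here. Their separate levels are therefore uncertain.

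**Figure D4:**
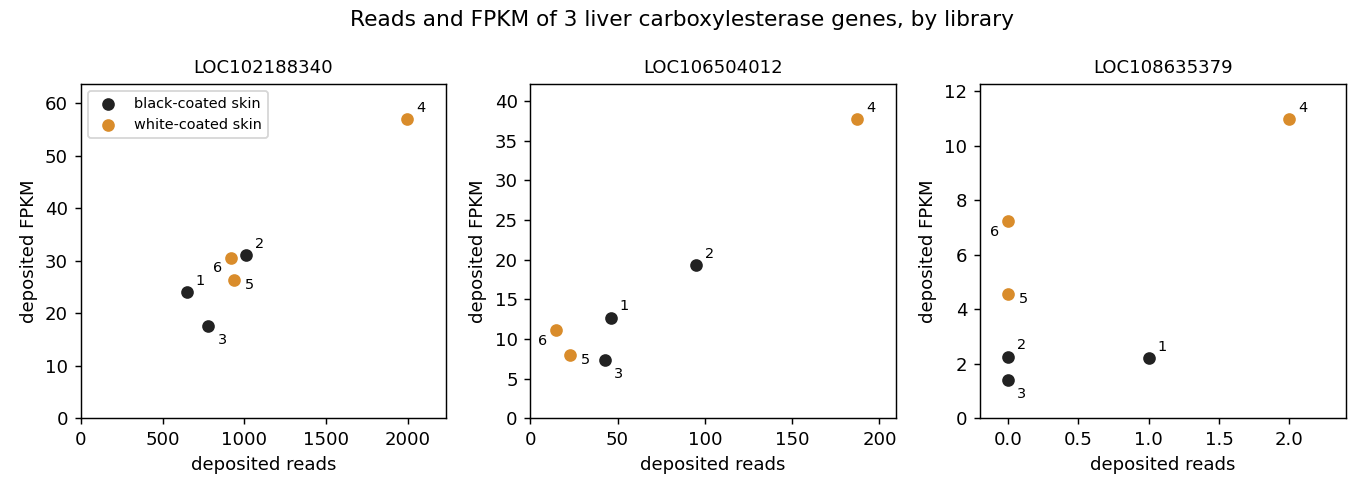
Deposited FPKM against deposited reads for 3 liver carboxylesterase genes in each library, numbered by replicate. Reads are not scaled to library size. FPKM of LOC102188340 rises broadly with reads, but black replicate 3 (17.6 FPKM at 780 reads) lies below black replicate 1 (24.0 FPKM at 647 reads). White replicates 5 and 6 of LOC106504012 lie high for their reads (7.9997 FPKM at 23 reads and 11.1 FPKM at 15 reads), and LOC108635379 has FPKM above 0 in 4 libraries with 0 reads.

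Transcript variants were told apart only by FPKM, since the read counts of a gene's variants were nearly equal. CES4A had 4 annotated variants. Isoform X1 held 89.2%, 41.9% and 81.3% of the gene's summed FPKM in the black libraries, against 75.3%, 86.95% and 83.7% in the white libraries. In black replicate 2, where CES4A had 75 reads, isoform X4 held 34.8% and isoform X3 20.4%. LOC102188073 had 2 variants. Isoform X2 stood at 2.88, 2.47 and 1.68 FPKM in the black libraries, against 10.04, 8.86 and 16.6 FPKM in the white libraries, and did not overlap between groups. Isoform X1 stood at 1.87, 0.975 and 1.36 FPKM in the black libraries, against 4.22, 1.27 and 2.69 FPKM in the white libraries, and did overlap. LOC102188887 had 3 variants, of which X2 was the largest in every library except black replicate 3, where X1 held 50.9% and X2 47.2% of its FPKM.

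Markers of the cell types in skin were set beside the members. In bulk skin, fewer cells of a type cannot be told apart from less RNA per cell. Of 12 listed markers of the differentiated epidermis 10 were found, and their summed level was 430, 772 and 1261 CPM in the black libraries, against 3018, 2003 and 1267 CPM in the white libraries. These groups also did not overlap, black replicate 3 and white replicate 6 being close to each other, and the part of this difference in the levels of CES4A, LOC102188073 and CES3 was not tested. All 10 had the lower mean CPM in black-coated skin, as had 47% of all genes tested. For 5 of the 10 every black library lay below every white one, against 4.99% of all genes tested. DESeq2 called 5 of the 10, against 0.496% of all genes, and edgeR called 0. Within the black libraries the markers did not run alike. SBSN stood at 126, 322 and 632 CPM in the black libraries, against 767, 513 and 422 CPM in the white libraries. KRT10 stood at 90.8, 25.9 and 36.2 CPM in the black libraries, against 670.2, 386 and 139 CPM in the white libraries. KRT1, KRT10, KRTDAP and LOR were highest in black replicate 1 and lowest in black replicate 2 among the black libraries, the order of CES4A there. All other markers found, namely IVL, ASPRV1, KPRP, CASP14, SBSN and DSC1, were instead lowest in black replicate 1 among the black libraries.

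Black replicate 1, the library highest in LOC102188887 and CES2, was also the highest in the summed markers of macrophages, mast cells, adipocytes, T cells, endothelium and sweat glands. Not every marker followed its sum. The sweat gland marker AQP5 was lowest in this library, at 0.497 CPM. The sweat gland marker KRT7 was highest in white replicate 4, and the adipocyte marker PLIN4 in white replicate 5. Of 9 macrophage markers 8 were found, none at 0, and their sum was 1087, 479 and 139 CPM in the black libraries, against 240, 226 and 233 CPM in the white libraries. All 5 mast cell markers were found, none at 0, and their sum was 311, 58.3 and 62.9 CPM in the black libraries, against 121, 73.1 and 44.8 CPM in the white libraries. Of 6 adipocyte markers 5 were found, with LEP at 0 in every library, and their sum was 147, 19.1 and 61.9 CPM in the black libraries, against 69.2, 87.5 and 104 CPM in the white libraries. Of 6 T cell markers 5 were found, none at 0, and their sum was 52.6, 8.25 and 11.99 CPM in the black libraries, against 40.5, 20.1 and 18.1 CPM in the white libraries. Of 6 endothelial markers all 6 were found, none at 0, with sums of 573 to 1038 CPM in the black libraries, against 710 to 777 CPM in the white libraries. Their part in the levels of LOC102188887 and CES2 was not tested. NOTUM was lowest in this library, as were the inner root sheath markers, of which 3 of 7 were found, none at 0. They summed to 755, 10136 and 15274 CPM in the black libraries, against 11952, 13489 and 12131 CPM in the white libraries, and this too was not tested.

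Sweat gland and melanocyte markers lay the other way. Of 9 sweat gland markers 6 were found, none at 0, with sums of 3804, 1985 and 733 CPM in the black libraries, against 442, 238 and 204 CPM in the white libraries. All 8 melanocyte markers were found, with TYR, MLANA and SLC24A5 at 0 in at least 1 library, and summed to 52.2, 902 and 1053 CPM in the black libraries, against 19.2, 15.2 and 18.99 CPM in the white libraries. The sums of neither list overlapped between groups. Most of the sweat gland sum in the black libraries was MUCL1, at 3047, 1721 and 395 CPM in the black libraries, against 89.98, 33.8 and 16.6 CPM in the white libraries, and 4 of the 6 sweat gland markers (AQP5, KRT18, KRT7 and KRT19) had groups that overlapped. Of the melanocyte markers OCA2 overlapped. Their part in the levels of CES4A, LOC102188073 and CES3 was not tested.

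Sebaceous gland markers, all 12 found and none at 0, summed to 1160, 597 and 1148 CPM in the black libraries, against 1067, 1130 and 1130.1 CPM in the white libraries. CES4A and CES3 were lowest in black replicate 2, the library with the lowest sum of these markers, and this was not tested. The markers did not all run alike. Among the black libraries ELOVL3, FADS2 and MGST1 were lowest in black replicate 1, and the other listed markers in black replicate 2. SCD lay above the white libraries in every black library. KRT79 lay below them, at 130, 21.2 and 105 CPM in the black libraries, against 240, 150 and 155 CPM in the white libraries. Although 5 members are named for the liver, ALB, the albumin made by hepatocytes, stood at no more than 0.213 CPM in any library. Of the other hepatocyte markers found, APOB, TTR and FGB stood at no more than 1.31 CPM and APOA1 between 18.1 and 46.8 CPM.

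**Figure D5:**
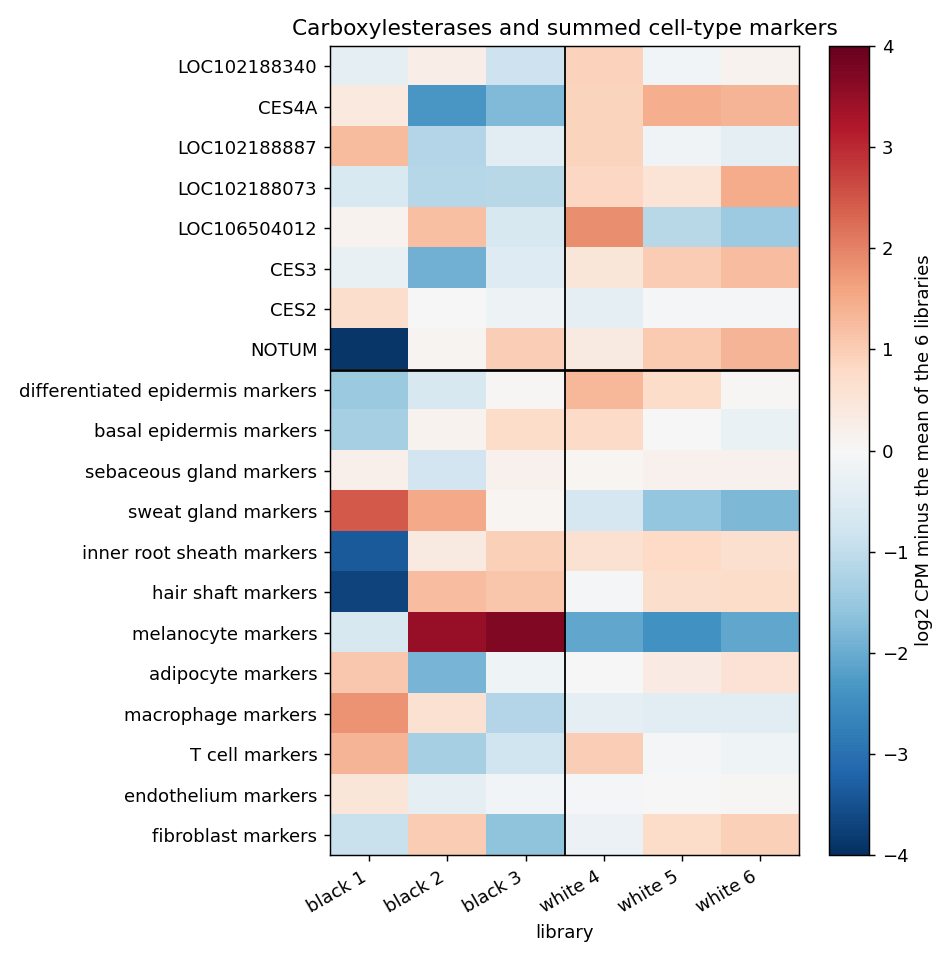
Log2 CPM minus the mean of the 6 libraries for the 8 members with enough reads (above the line) and for the summed markers of cell types (below the line), by library. CES4A, LOC102188073 and CES3 are below their mean in black replicates 2 and 3 and above it in the white libraries, and NOTUM and the hair markers are lowest in black replicate 1.

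Genes whose levels ran most like those of the 2 members with the lowest log2 fold change were ranked by Pearson's r of log2 CPM over the 6 libraries, among 15068 genes with a mean of at least 1 CPM. The libraries fall into 2 groups, and all genes of a library share its depth, so r describes these libraries only. For CES4A the 5 nearest were MME, ZNF502, YTHDC1, ADTRP and NEIL1, with r between 0.987 and 0.994. MME, the cell surface peptidase neprilysin, stood at 6.67, 2.01 and 2.64 CPM in the black libraries, against 9.22, 9.34 and 9.49 CPM in the white libraries. ADTRP, a membrane hydrolase of fatty acid esters of hydroxy fatty acids, stood at 54.7, 16.4 and 24.8 CPM in the black libraries, against 60.2, 71.5 and 65.7 CPM in the white libraries. Each of these genes shared with CES4A the high value in black replicate 1 relative to the other black libraries. Within the family r with CES4A was 0.923 for CES3 and 0.873 for LOC102188073, and it was 0.045 for CES2.

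For LOC102188073 the 5 nearest were FGF13, MICU2, C1QTNF9, CNIH4 and ZNF821, with r between 0.974 and 0.985. Most of these differed far less in size than LOC102188073: FGF13 averaged 7.61 ± 0.107 and 8.16 ± 0.175 CPM in black- and white-coated skin (SD, n = 3 each). C1QTNF9, a secreted protein of the C1q and tumour necrosis factor family, came closest in size, at 2.13, 1.43 and 1.17 CPM in the black libraries, against 4.61, 4.11 and 5.81 CPM in the white libraries.

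Genes that act on the same substrates were examined as lists, in the same fit over all genes. Their adjusted p-values are from edgeR's quasi-likelihood test with Benjamini-Hochberg adjustment over the 15778 genes. Of 19 neutral lipid hydrolases 16 were tested and 0 were called in either direction, by edgeR or DESeq2, with 2 at an unadjusted p under 0.05 and a median log2 fold change of -0.07 against 0.02 for all genes. LIPK, a lipase of the cornifying epidermis, stood at 1.28, 0.287 and 0.65 CPM in the black libraries, against 11.6, 2.29 and 1.77 CPM in the white libraries (log2 fold change -2.82, SE 0.91, edgeR adjusted p = 0.999995, DESeq2 adjusted p = 0.139). LIPA, the lysosomal acid lipase that cuts cholesteryl esters, stood at 357, 195 and 99.8 CPM in the black libraries, against 88.1, 90.9 and 86.6 CPM in the white libraries (log2 fold change 1.30, SE 0.43, edgeR adjusted p = 0.999995). Both had groups that did not overlap. LIPA followed the order of the macrophage sums within black-coated skin, and their part in its level was not tested.

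Of 14 genes of ester synthesis 11 were tested and 0 were called by edgeR or DESeq2, with 0 at an unadjusted p under 0.05. The mean CPM was lower in black-coated skin for 9 of them and for 47% of all genes tested, and the median log2 fold change was -0.31. AWAT1, a wax ester synthase of sebaceous glands, stood at 6.95, 0.143 and 0.52 CPM in the black libraries, against 5.46, 6.58 and 7.37 CPM in the white libraries. DGAT2L6, a relative of the same enzyme family, stood at 6.03, 0.43 and 3.81 CPM in the black libraries, against 5.75, 4.17 and 6.73 CPM in the white libraries. Both were lowest in black replicate 2, as CES4A and CES3 were, and both had groups that overlapped.

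The other lists had 0 genes called by edgeR or DESeq2 and 0 at an unadjusted p under 0.05. Of 17 other ester and amide hydrolases 14 were tested, with a median log2 fold change of 0.13, and AFMID (0.79, SE 0.51) and CMBL (0.61, SE 0.36) had the largest values. Of 21 genes of the oxidation and conjugation of foreign compounds 10 were tested, with a median of 0.08. Among these ALDH3A2, the fatty aldehyde dehydrogenase, averaged 165 ± 9.09 CPM in black-coated and 239.8 ± 71.3 CPM in white-coated skin (SD, n = 3 each), with groups that did not overlap, and AKR1B1 had a log2 fold change of 0.49 (SE 0.29). Of 22 nuclear receptors and regulators 17 were tested, with a median of 0.05, CEBPA at -0.54 (SE 0.26) and AHR at 0.47 (SE 0.39). NR1I2 and NR1I3, the receptors that control carboxylesterases of the human and mouse liver, and HNF4A each had 0 reads in at least 1 library. Of 9 genes of retinyl ester handling 8 were tested, with a median of -0.16, the retinol receptor STRA6 at -0.88 (SE 0.92) and the retinol dehydrogenase DHRS9 at 0.78 (SE 1.02).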

How the data were processed

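The deposited table gives read counts per transcript and, for each transcript, FPKM, per the file headers. Bowtie2 2.0.6, HISAT2 and Cufflinks appear in the submitters' processing notes, with no roles. No source used here names the counting program, genome build or use of strand. Of 53266 transcript rows, 189 without a gene name (0.00376% to 0.0675% of a library's summed rows) and 1770 of transfer RNA were left out. The row with the most reads stood for a gene in the counts, and the row with the highest FPKM in FPKM. Rows were not summed.

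Counts of all genes were tested in R 4.3.3 with edgeR 4.0.16 (low-count filter, TMM, robust quasi-likelihood fit, Benjamini-Hochberg adjustment), which was checked on simulated counts. Each SE is the absolute log2 fold change over the square root of F. Groups were taken from the labelled region. Unused value columns numbered 0. Members, lists and tests were chosen with earlier results of these data known. All members were named, with the 2 largest changes of each list and the 5 genes nearest to each of 2 members. Gene order came from ARS1.2, without coordinates. Alternatives were other scalings, filters, DESeq2 1.42.0, limma 3.58.1 on counts or FPKM, the mean of transcript rows, and leaving out each library. Leaving out libraries for the overlap of groups, and the sum of FPKM rows, were added after the data were seen.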

Additional observations from a re-analysis of the deposited data

How the results depend on the processing

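The number of genes called over all genes tested was 0 in edgeR and 78 in DESeq2, was 0 in the other 9 settings with all libraries, and ran from 0 to 16 when a library was left out: 16 without black replicate 1, 6 without black replicate 2 and 1 without white replicate 4. The cause was not tested. No gene of the 6 lists was called in any setting. Of the member log2 fold changes with all libraries, only that of CES3 moved by more than the spread between replicates: it was -0.97 on log2(FPKM + 1), where the pseudocount is close to its level. With a library left out the ranges were -3.26 to -1.59 for CES4A, -0.99 to 0.50 for LOC102188887 and -0.78 to 1.71 for LOC106504012, and for these last 2 the sign also differed between settings with all libraries. CES4A, LOC102188073 and CES3 were negative in all settings run, as were LOC102188340 and NOTUM, whose groups overlapped. CES2 was positive in all of them. Members lower in black-coated skin numbered 6 of 8, 6 to 9 in other settings (no filter adds the untested members) and 5 to 7 with a library left out. The order by FPKM kept 7 to 9 of its 9 neighbour pairs in other settings and 6 to 8 with a library left out, where 5 libraries cannot reach an exact p of 0.05. No paired analysis was possible because the groups share no replicate numbers. Depth limits CES5A and LOC108635379, which were too low to test, and NOTUM in black replicate 1, with 2 reads.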
